A study of Rattus norvegicus with 5 samples.

Results

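The genes of endoplasmic reticulum (ER) folding and secretion were followed in rat small intestine after 1 month of calorie restriction (CR). They were taken by gene symbol: the Pdia, Sec61, Sec11, Ssr, Tmed and COPI coat (Copa, Copb, Copg, Copz) families, and 15 single genes among which are the chaperones *Hspa5*, *Hsp90b1*, *Calr* and *Canx* and the stress regulators *Xbp1*, *Atf4* and *Ddit3*. The rule gave 56 probe sets (gene probes) of 44 genes, out of 15866 on the array without its control probe sets, and *Atf6* was the only single gene with no matching probe set. Of these, 50 probe sets of 41 genes passed a filter on the mean log2 signal over all arrays (a signal of 46.5), together with 7933 probe sets in all. Male Wistar rats entered the diets at 6 weeks of age and received 5, 10, 20 or 30% less food than the recorded intake, or the full intake as control, for 1 month, and all groups were fasted for 16 h before dissection. The RNA of 5 rats was pooled for each group and each pool was hybridized to 1 Affymetrix rat 230 array. No level therefore has a replicate, and the spread between single rats cannot be seen.

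Proteins for secretion or for the cell surface enter the ER through the Sec61 channel, are helped by the translocon-associated proteins (Ssr genes), and lose their signal peptide to the signal peptidase that contains Sec11. Inside, the Hsp70 protein BiP (*Hspa5*), the Hsp90 paralog Grp94 (*Hsp90b1*), the lectins calreticulin and calnexin and the protein disulfide isomerases fold them. Unfolded protein activates the sensors Ire1, Perk and Atf6, which act through the transcription factors *Xbp1*, *Atf4* and *Ddit3* and induce chaperone genes. In the intestine this machinery serves the secretion of mucus, lipoproteins, antibodies and digestive enzymes, and *Xbp1* is needed by Paneth and goblet cells in mice.

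The response is read at promoters through the ER stress element, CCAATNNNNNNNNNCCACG, which is bound by NF-Y and by Atf6 or Xbp1. It was searched on both strands in the RefSeq promoters (build GRCr8, 250 bases before to 50 after the gene start), which matched 40 of the 44 genes. A full match stood in 6 of the 40 (15%), against 21 of all 27457 promoters (0.0765%). The 6 genes were *Calr*, *Canx*, *Dnajc3*, *Hsp90b1* and *Hspa5*, which made 5 of the 8 chaperone and cochaperone genes, and *Xbp1*. The elements are shown because these genes are the ones on which an ER stress response would first be looked for in the signals below. Capitals mark the CCAAT and CCACG boxes, which read ATTGG and CGTGG where the element lies on the other strand.

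*Hspa5* (43 bases before the start): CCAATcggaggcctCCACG
*Xbp1* (65 bases before): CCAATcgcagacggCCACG
*Hsp90b1* (176 bases before): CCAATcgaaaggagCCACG
*Hsp90b1* (72 bases before, other strand): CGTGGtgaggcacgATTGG
*Dnajc3* (133 bases before): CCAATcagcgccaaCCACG
*Canx* (230 bases before): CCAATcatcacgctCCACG
*Calr* (232 bases before, other strand): CGTGGtcgaccctgATTGG

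The whole promoter windows of *Hspa5* (chr3:38452766-38453065, plus strand) and *Xbp1* (chr14:84604373-84604672, plus strand) are given with the same marking, since the signals of these 2 genes differed most between arrays among the 6.

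*Hspa5*: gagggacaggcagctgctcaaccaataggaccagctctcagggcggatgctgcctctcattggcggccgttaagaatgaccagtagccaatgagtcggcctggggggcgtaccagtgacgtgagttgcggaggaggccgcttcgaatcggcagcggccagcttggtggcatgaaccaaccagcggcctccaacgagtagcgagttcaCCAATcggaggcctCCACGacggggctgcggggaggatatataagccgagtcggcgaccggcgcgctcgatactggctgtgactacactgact
*Xbp1*: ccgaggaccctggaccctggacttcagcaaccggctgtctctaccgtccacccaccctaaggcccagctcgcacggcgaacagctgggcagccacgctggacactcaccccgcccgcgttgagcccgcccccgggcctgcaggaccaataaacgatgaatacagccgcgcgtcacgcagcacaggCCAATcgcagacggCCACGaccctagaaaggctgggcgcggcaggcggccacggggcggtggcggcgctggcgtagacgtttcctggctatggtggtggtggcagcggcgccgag

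The shorter core ACGTG, common to sites of Xbp1 and Atf6, was present in 29 of the 40 promoters (72.5%) and in 19.7% of all promoters. The CCAAT box alone, which forms part of the ER stress element, was present in 22 of 40 (55%) and in 37.7% of all, with all 8 chaperone genes among the 22. These matches describe sequence only. The members were picked as ER genes and the element is one known for such genes, so its higher share among them is no independent result.

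The arrays share the same trimmed mean signal of 132 and correlated at 0.971 to 0.988 over the kept probe sets. For beta-actin, the 3' probe set was 3.18 times as bright as the 5' one on the 20% CR array, and 2.20 to 2.41 times on the other 4 arrays. The same ratio for *Gapdh*, 1.40, 1.32, 1.37, 1.27 and 1.21 at 0, 5, 10, 20 and 30% CR, did not set the 20% CR array apart. Enterocyte markers, 6 of 10 on the array, were present on all arrays and did not run together. *Fabp2* had signals of 984, 1918, 1806, 2383 and 1969 at 0, 5, 10, 20 and 30% CR, and *Fabp1*, *Slc5a1* and *Apoa4* were likewise above the control in every CR pool. *Anpep* had 1005, 808, 821, 1329 and 755, and like *Apoa1* was below the control at 5, 10 and 30% CR and above it at 20% CR. The summed signal of the 6 was 11447 to 16299 on the CR arrays, highest at 20% CR, and 9641 on the control array. For the other secretory cells, the array held 5 of 7 goblet markers. Their summed signal was 18326, 17239, 16833, 19830 and 15879 at 0, 5, 10, 20 and 30% CR, highest on the 20% CR and control arrays. The array also held 7 of 9 Paneth markers (3909 to 7134 on the CR arrays, highest at 10% CR, and 4017 on the control array). Of 13 symbols listed for plasma cells it held 2 (268.5 to 306.3, and 319.3). Of the Paneth markers only *Lyz2*, *Reg3b*, *Reg3g* and *Pla2g2a* passed the filter, and *Defa5* had at most 2.2. The plasma cell markers, *Sdc1* (220.9 to 266.4) and *Prdm1* (42.9 to 53.7, near the filter), were too few to measure these cells. Exocrine pancreas markers, 14 of 18 on the array, summed to 321 to 439 on the CR arrays and to 1076 on the control array, and only *Cela1* of the 14 passed the filter. Smooth muscle markers, 7 of 7, summed to 7677 to 10742 on the CR arrays, lowest at 5 and 30% CR, and to 9675 on the control array, and 8 of 8 enteroendocrine markers to 1762 to 1802, and 1729. The amylase gene *Amy2a3*, for example, had 48.2 on the control array and at most 13.2 in the CR pools. In pooled tissue, fewer cells of a type and less RNA per cell cannot be told apart. What part these differences in markers and in the beta-actin ratio have in the values below was not tested.

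The ER genes as a group stayed close to the control at every level. The 50 kept probe sets had a median log2 ratio to the control array of 0.061, −0.051, −0.012 and −0.020 at 5, 10, 20 and 30% CR, and all 7933 kept probe sets had 0.0048, 0.0059, −0.030 and 0.0012. The mean ratio over the 4 levels was positive for 24 and negative for 26 of the 50 (48% positive, 49.1% over all kept probe sets), and lay between −0.33 and 0.41. It was within 0.25 of 0 for 43 of 50 (86%), and for 73.6% of all kept probe sets. The members' signals were mostly strong, with 40 of 50 also above a stricter filter at a signal of 147. Over these 40 the median SD across the 5 arrays was 0.15 on the log2 scale, the same as over all 3967 probe sets above that signal (0.15).

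**Figure D1:**
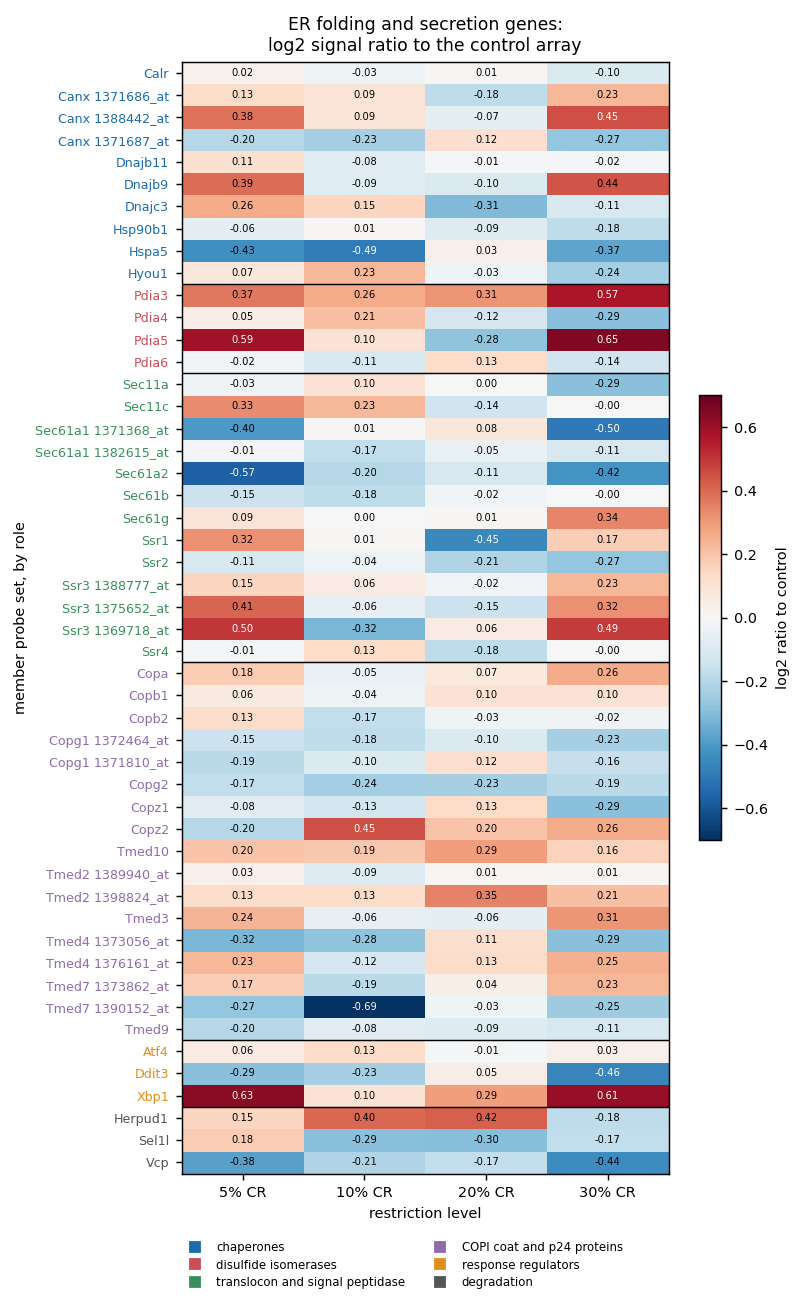
Log2 signal ratio of each CR array to the control array (columns) for the 50 kept probe sets (rows), grouped and coloured by role, with the value in each cell. No row reaches 0.5 at all 4 levels, and the strongest single values are 0.65 (*Pdia5*, 30% CR) and −0.69 (a *Tmed7* probe set, 10% CR).

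In limma, with the mean of the 4 CR pools set against the control pool, none of the 50 passed an adjusted p of 0.05, and neither did any other of the 7933 (0%). The adjusted p of the members lay between 0.988 and 0.998, and 1 member and 378 of all probe sets (4.76%) had an unadjusted p below 0.05. The linear trend over restriction gave the same result of 0 of 50 and 0% of 7933, with 1 member and 245 of all (3.09%) below 0.05 before adjustment. The comparison with the control has 3 residual degrees of freedom, all from differences between the CR levels, so the spread of the control pool itself is not measured. The 95% interval of the mean ratio reached a median of 0.38 to either side of it over the members, at least 0.28 and at most 0.74. It lay wholly between −0.5 and 0.5 for 24 of 50 members and for 27.1% of all kept probe sets, a share not matched for signal strength. For the other 26 members a mean difference of 0.5 was within the interval.

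**Figure D2:**
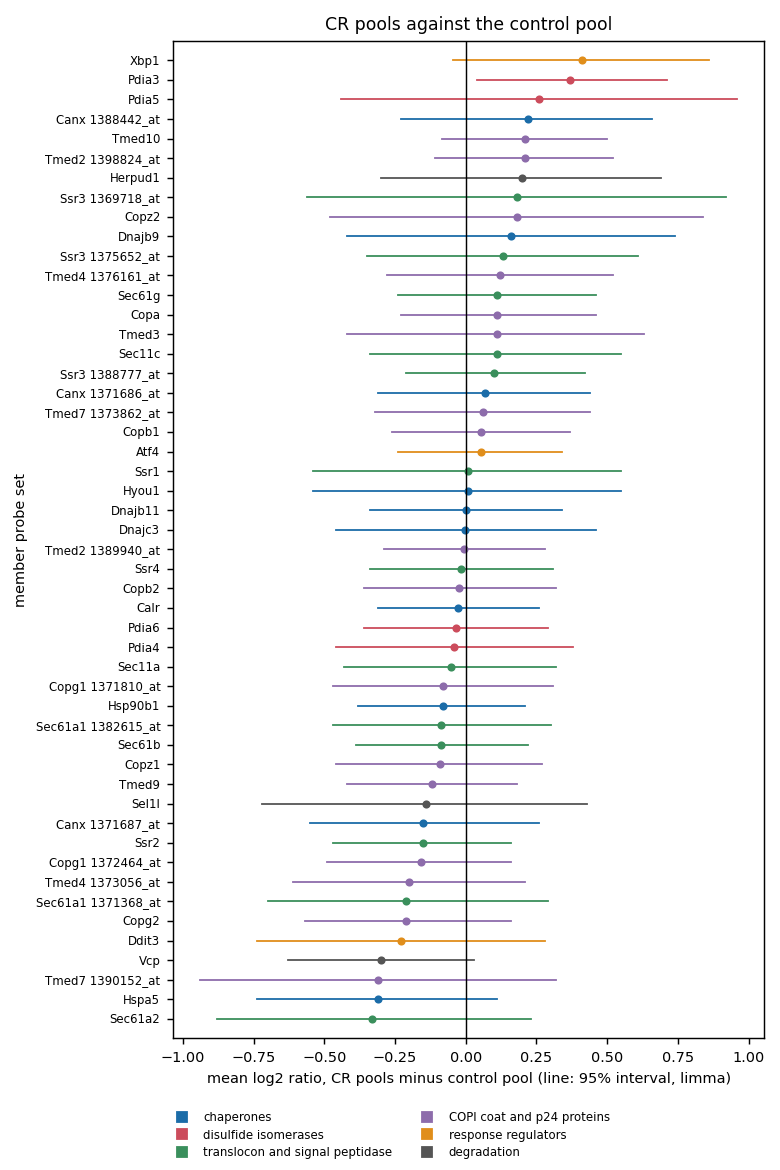
For each kept probe set, the mean of its 4 log2 ratios to the control array (points), with the 95% interval of the limma fit (lines), coloured by role. The points run between −0.33 and 0.41, and the interval of *Pdia3*, 0.041 to 0.71, is the only one that leaves out 0.

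Counted by size, 2 of 50 members were at least 0.5 (log2) higher than the control at 5% CR (4%, against 5.62% of all kept probe sets) and 1 was lower by as much (2%, against 3.84%). At 10% CR the counts were 0 higher (background 4.73%) and 1 lower (3.45%), at 20% CR 0 higher (3.95%) and 0 lower (6.15%), and at 30% CR 3 higher (6%, against 7.51%) and 1 lower (2%, against 5.61%). None kept such a size in 1 direction at all 4 levels, where 0.769% of all probe sets were higher and 0.340% lower. The members counted were *Pdia5* and *Xbp1* (higher at 5 and 30% CR), *Pdia3* (higher at 30%), *Sec61a2* (lower at 5%), *Sec61a1* (lower at 30%) and *Tmed7* (lower at 10%, at a weak probe set). With 1 array a level these counts have no replicate check, and the shares over all probe sets are not matched for signal strength.

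**Figure D3:**
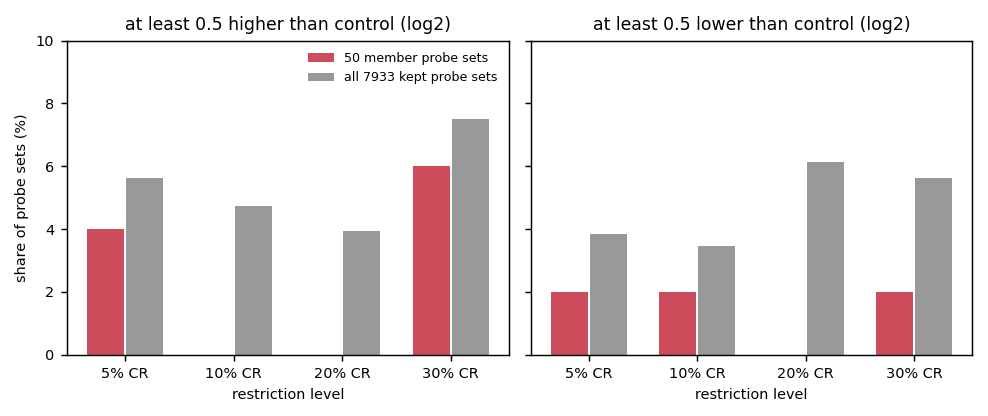
Share of the 50 member probe sets (red) and of all 7933 kept probe sets (grey) that were at least 0.5 higher (left) or lower (right) than the control array on the log2 scale, by restriction level. The members' shares, 0 to 6%, lie below the grey bar at each level and in both directions, but rest on 0 to 3 probe sets each. Above a signal of 147 were 40 of the 50 members and 3967 of the 7933. The grey bars are not matched for this.

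Among the regulators, *Xbp1*, the transcription factor activated by Ire1, had the highest mean ratio of the kept members. Its signals were 1108, 1716, 1186, 1352 and 1691 at 0, 5, 10, 20 and 30% CR. All 4 CR pools were above the control pool, the 5 and 30% pools clearly and the 10% pool barely. The CR pools averaged 1486 ± 260 (SD over the 4 levels), against 1108 on the control array, a mean log2 ratio of 0.41 ± 0.20 (standard error, 95% interval −0.044 to 0.86, limma adjusted p = 0.988). Whether the probe set separates the spliced mRNA, which encodes the active factor, from the unspliced one was not examined. *Atf4*, whose translation is raised by Perk, had nearly the same signal everywhere, with 851, 887, 930.3, 847 and 870.3 at 0, 5, 10, 20 and 30% CR and a mean ratio of 0.053 ± 0.13. *Ddit3* (Chop), which is induced by Atf4 and promotes cell death under lasting stress, had 110.1, 90.3, 94.0, 113.7 and 80.3. It was below the control at 5, 10 and 30% CR and level with it at 20% CR (mean ratio −0.23 ± 0.23, adjusted p = 0.988).

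Of the chaperones, *Hspa5* differed most from the control. Its signals were 1670.3, 1244, 1191, 1709 and 1288 at 0, 5, 10, 20 and 30% CR, so that the control and 20% pools were alike and the other 3 lay apart from them. The CR pools averaged 1358 ± 237 (SD over the 4 levels), against 1670.3 on the control array, and their geometric mean was 0.805 of the control signal (mean log2 ratio −0.31 ± 0.19, 95% interval −0.74 to 0.11, adjusted p = 0.988). *Hsp90b1*, which acts after BiP on selected clients, had 1624, 1555, 1636, 1526 and 1429 at the 5 levels (−0.082 ± 0.13). *Calr*, a calcium-binding lectin, had 1607, 1634, 1572, 1617 and 1495 (mean ratio −0.026 ± 0.13, 95% interval −0.31 to 0.26). *Hspa5* and *Xbp1*, which both carry the ER stress element shown above, thus had mean ratios of opposite sign, and *Hsp90b1* and *Calr*, which also carry it, had ratios near 0. Over the 6 genes with the ER stress element the median of the mean ratio was −0.015 (2 positive, 4 negative), and over the 31 kept genes with a promoter but no such match it was 0.001 (16 positive, 15 negative).

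*Dnajb9*, a BiP cochaperone and a target of Xbp1, had signals of 94.9, 124.2, 89.4, 88.3 and 128.8 at 0, 5, 10, 20 and 30% CR. It was high in the same pools as *Xbp1*, those at 5 and 30% CR, and below the control in the other 2 CR pools (mean ratio 0.16 ± 0.26, adjusted p = 0.988). The cochaperones *Dnajb11* and *Dnajc3* had mean ratios of 0.00078 and −0.0036, and *Hyou1*, the exchange factor of BiP, had 0.0077 at its kept probe set. *Dnajc3* still ranged between 0.26 at 5% CR and −0.31 at 20% CR. *Canx*, the membrane-bound partner of *Calr*, was measured by 3 kept probe sets that differed in direction. The 5 and 30% CR pools were highest at 2 of them (mean ratios 0.069 and 0.22), and the 30% CR pool was lowest at the other one (−0.15). Of the 10 kept chaperone probe sets, the mean ratio was positive for 5 and negative for 5, and none kept 1 sign at all 4 levels.

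The disulfide isomerases held the member with the smallest p. *Pdia3* (Erp57), which forms disulfides in glycoproteins held by calnexin and calreticulin, had 926.7, 1194, 1108, 1146 and 1373 at 0, 5, 10, 20 and 30% CR. Each CR pool was above the control pool and the 30% pool was highest. The CR pools averaged 1205 ± 117, against 926.7 on the control array (1.30-fold as a geometric mean, mean log2 ratio 0.37 ± 0.15, adjusted p = 0.988). Its slope, 0.14 ± 0.055 (log2 per 10% restriction), was the highest of the kept members (adjusted p = 0.998). A second, dim *Pdia3* probe set below the filter had ratios of −0.29, 0.37, 0.019 and −0.50. *Pdia5* had 166.3, 250.9, 177.7, 136.6 and 260.2, and its spread across arrays was the largest among the kept members (SD 0.40), with both the highest pools, 5 and 30% CR, and the lowest one, 20% CR, being CR pools. *Pdia4* (Erp72) had 453.5, 468, 523, 416 and 371, lowest at 30% CR, and the lowest slope of the members, −0.12 ± 0.060 (adjusted p = 0.998). *Pdia6* had a mean ratio of −0.036. *Pdia2*, the pancreatic isomerase, was below the filter with 10.8 on the control array and 0.4 to 1.2 on the CR arrays. It was thus high on the same array as the exocrine pancreas markers other than *Cela1*. Their part in it was not tested.

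**Figure D4:**
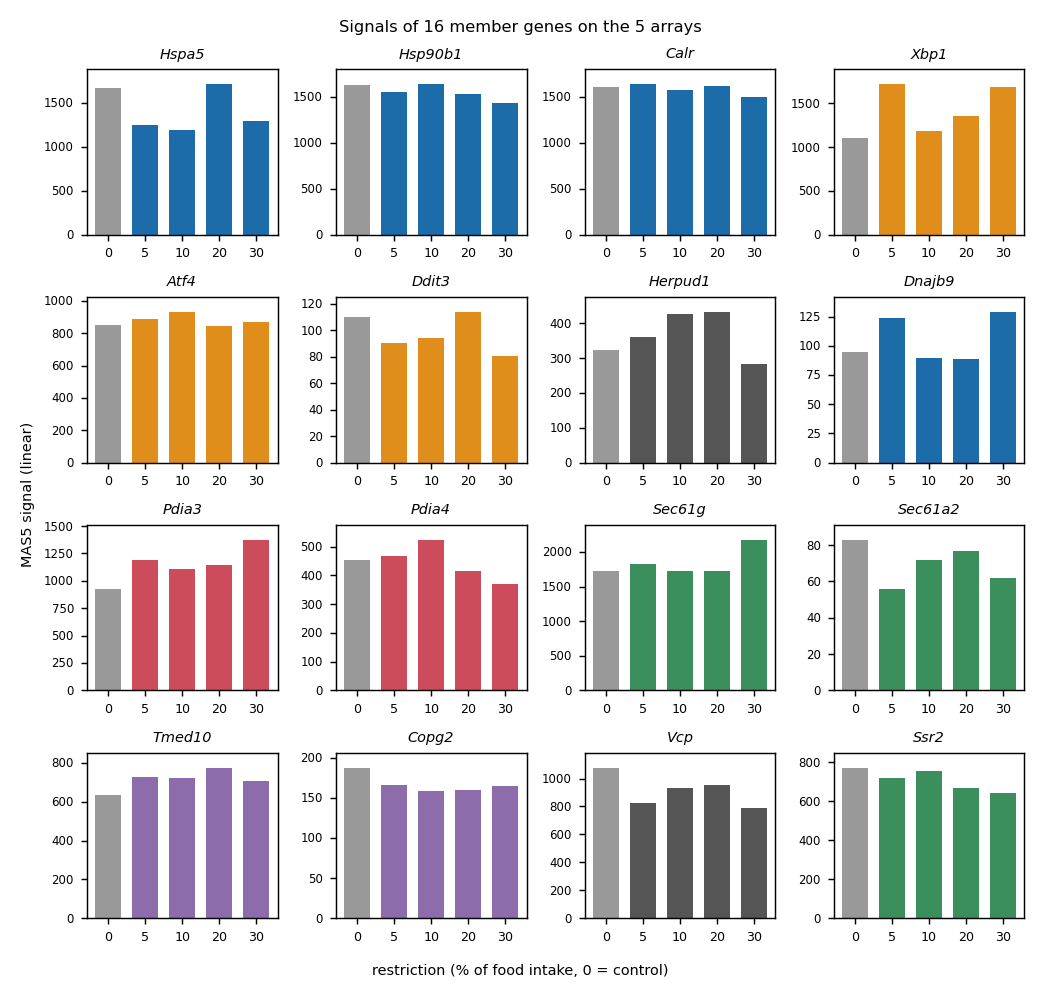
MAS5 signal (linear, each panel from 0) of 16 member genes against restriction, with the control array in grey and the CR arrays coloured by role. *Xbp1* and *Dnajb9* are highest at 5 and 30% CR, *Hspa5* is highest on the control and 20% CR arrays, and *Calr*, *Hsp90b1* and *Atf4* are nearly level.

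The entry machinery had ratios in both directions. The mean ratio was positive for 6 and negative for 7 of its 13 kept probe sets, with a median of −0.016. *Sec61g*, the small gamma subunit of the channel, had 1718, 1830.0, 1723, 1726 and 2173 at 0, 5, 10, 20 and 30% CR, level with the control except at 30% CR (mean ratio 0.11 ± 0.16). *Sec61a1*, the pore-forming subunit, had 613, 463, 616, 648 and 432 at its stronger probe set, low at 5 and 30% CR, while the other probe set stayed between 134.0 and 151.2 on the 5 arrays. Its paralog *Sec61a2* had 82.8, 55.8, 72.0, 76.7 and 61.9, below the control in every CR pool and with the lowest mean ratio of the kept members (−0.33 ± 0.25, adjusted p = 0.988). *Sec61b* had a mean ratio of −0.089. In the translocon-associated complex, the 3 probe sets of *Ssr3* were all highest at 5 and 30% CR (mean ratios 0.10, 0.13 and 0.18) and *Ssr1* ranged between 0.32 at 5% and −0.45 at 20% CR. *Ssr2* had 770.3, 716, 752, 665 and 641, below the control in every CR pool and lowest at 30% CR (mean ratio −0.15 ± 0.14, slope −0.087 ± 0.049), and *Ssr4* had a mean ratio of −0.016. The signal peptidase subunits *Sec11a* and *Sec11c* had −0.054 and 0.11.

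The COPI coat returns escaped ER proteins and cargo receptors from the Golgi, and the p24 proteins (Tmed genes) are cargo receptors that cycle between both compartments. Of their 17 kept probe sets, 8 were positive and 9 negative in the mean ratio. *Copg2*, a gamma coat subunit, had 187.3, 166.5, 159.0, 159.5 and 164.6 at 0, 5, 10, 20 and 30% CR, with the 4 CR pools close together (162 ± 3.72) and below the control at 187.3 (mean ratio −0.21 ± 0.16, adjusted p = 0.988). Its paralog *Copg1* had −0.16 and −0.080 at its 2 probe sets. The other coat subunits *Copa*, *Copb1*, *Copb2* and *Copz1* had mean ratios of 0.11, 0.055, −0.023 and −0.092, and *Copz2*, just above the filter, 0.18. *Tmed10*, a p24 protein of the early secretory pathway, had 633, 728, 721, 774 and 706, above the control in every CR pool (732 ± 29.5, against 633, mean ratio 0.21 ± 0.13, adjusted p = 0.988). *Tmed2*, its binding partner, had 0.21 at one probe set and −0.0077 at the brighter one, whose signals varied least among the kept members (SD 0.047). *Tmed4* had −0.20 and 0.12 at its 2 probe sets and *Tmed7* 0.061 and −0.31, so the direction for these genes depends on the probe set. *Tmed3* and *Tmed9* had 0.11 and −0.12. *Tmed1*, *Tmed8* and another *Tmed7* probe set were below the filter, with signals of at most 53.7.

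Of the genes that clear misfolded protein, *Herpud1*, a stress-induced membrane protein of the degradation complex, had 323.7, 360.3, 427, 432 and 285 at 0, 5, 10, 20 and 30% CR. It was above the control at 5 to 20% CR and below it at 30% CR (mean ratio 0.20 ± 0.22, adjusted p = 0.988). *Vcp*, the ATPase that pulls proteins out of the membrane, had 1076, 826, 929, 955 and 792. All CR pools lay below the control pool (876 ± 79.0, against 1076, 0.811 of the control signal, mean log2 ratio −0.30 ± 0.15, 95% interval −0.63 to 0.029, adjusted p = 0.988). *Sel1l*, the adaptor of the ubiquitin ligase Hrd1, had a mean ratio of −0.14 ± 0.26. Over all roles, 5 probe sets were above the control in every CR pool (10%, against 19.0% of all kept probe sets) and 9 below it in every CR pool (18%, against 20.6%).

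Several members were high or low on the same arrays, and so all 10 pairs of arrays were compared by how often both were the highest or both the lowest of the 5. This count was chosen after the values had been seen. The 5 and 30% CR arrays were the highest pair for 15 of the 50 members (30%), against 18.4% of all kept probe sets, and the lowest pair for 8 (16%, against 15.9%). The 15 include *Xbp1*, *Dnajb9*, *Pdia3*, *Pdia5*, *Ssr1* and *Sec61g*, and 2 probe sets of *Canx* and 3 of *Ssr3*, which share a transcript. The 30% thus counts some transcripts more than once. With 1 probe set a gene the highest pair had 11 of 41 (against 18.4% of all kept probe sets) and the lowest 7 of 41 (against 15.9%). The 8 include *Sec61a1*, *Sec61a2*, *Ddit3* and *Vcp*. The control and 20% CR arrays were the highest pair for 11 members (22%, against 12.7%), among them *Hspa5*, *Ddit3*, *Vcp* and *Pdia6*. With 1 probe set a gene this was 8 of 41. The control and 10% CR arrays were the lowest pair for 10 (20%, against 10.8%), among them *Xbp1* and *Pdia3*. That count was 7 of 41 with 1 probe set a gene, and 6 of 50 with quantile normalization (against 12.2%). The arrays at 5 and 30% CR were also the most alike over all kept probe sets, with a correlation of 0.988 across 7933 probe sets. The smooth muscle markers had their lowest sums on the same 2 arrays (7774 and 7677, against 9675 on the control array), though *Des* was lowest at 20% CR (897.4). The goblet markers had their highest sums on the control and 20% CR arrays (18326 and 19830). Taken singly, only *Fcgbp* of the goblet markers had this pair highest. The part of either cell type in these counts was not tested.

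**Figure D5:**
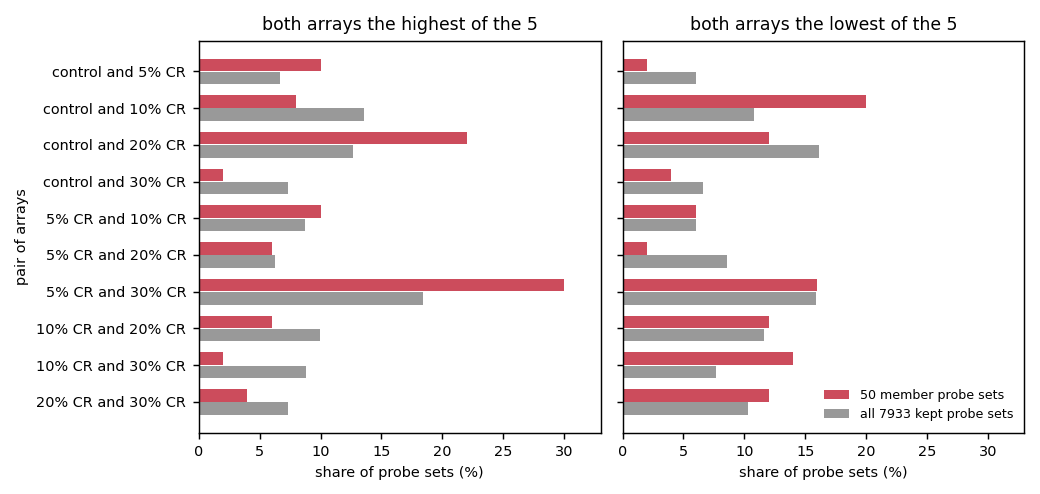
Share of the 50 member probe sets (red) and of all 7933 kept probe sets (grey) for which both arrays of a pair were the highest (left) or the lowest (right) of the 5 arrays. The pair of 5 and 30% CR has the longest bars on the left, 30% of members and 18.4% of all.

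Along the restriction level, 20 members had a positive and 30 a negative slope (60% negative, against 52.3% of all kept probe sets), between −0.12 and 0.14 (log2 per 10% restriction), and none passed the test. Other genes of the same pathway were listed from general knowledge. The list held 91 symbols, some of them older names of a gene also listed under its current name. Of these symbols 77 were found and 74 kept, 38 with a positive and 36 with a negative mean ratio (median 0.007). In limma 0 of 74 passed in either fit (0 for CR against control and 2 for the trend at an unadjusted p below 0.05). The 4 highest were *Lman1*, a mannose lectin that carries glycoproteins out of the ER (0.37), *Syvn1*, the ligase Hrd1 (0.31), *Sec24d*, a COPII coat subunit (0.31), and *Srprb*, of the receptor that docks ribosomes (0.29). *Lman1* had 100.7, 132.7, 125.1, 131.1 and 133.0 at 0, 5, 10, 20 and 30% CR, with the 4 CR pools together above the control. The 4 lowest were *Ganab*, a glucosidase of glycan trimming (−0.32), *Ppp1r15a*, which ends the Perk signal (−0.27), and the cargo receptors *Surf4* (−0.26) and *Ergic3* (−0.25). *Ppp1r15a* had 79.0, 62.4, 68.1, 76.1 and 57.0, nearest to the control at 20% CR like *Ddit3*. Of the 74, 1 was at least 0.5 higher and 1 lower by as much at 5% CR, 0 and 1 at 10% CR, 0 and 0 at 20% CR, and 4 and 0 at 30% CR. The 4 make 5.41%, against 7.51% of all kept probe sets. The 5 and 30% CR arrays were the highest pair for 15 of the 74 (20.3%, against 18.4%) and the lowest pair for 15 (20.3%, against 15.9%). These genes were counted with 1 probe set each. Members counted in the same way gave 11 of 41 for the highest pair and 7 of 41 for the lowest.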

How the data were processed

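The authors deposited MAS5 signals, an intensity on a linear scale, made with the Affymetrix operating software. All 5 arrays had the same trimmed mean (2% left out at each end), so they had been scaled to a common level. The target of that scaling is unknown here. MAS5 uses mismatch probes as background, which makes weak signals noisy, and scaling removes any difference in total RNA. The study's detection and change calls were not used here. Per the labels and the study's methods, each array is 1 pool of 5 rats, so p-values reflect the spread between pools of different diets.

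After a floor of 0.1 and log2, the 57 array controls were removed, and the brighter part of the gene probe sets was kept (mean log2 signal of at least 5.54, quantile 0.5). limma 3.58.1 (R 4.3.3) was fitted to all 7933 kept probe sets, once with CR against control and once with the restriction percent as slope. Tests were two-sided with an intensity trend in eBayes, and p-values were adjusted by Benjamini-Hochberg over the whole table (threshold 0.05). Both fits were tested on simulated data, with no change or with changes larger than any mean ratio of the kept members. That check does not cover the sizes seen here. The number of arrays, 1 per level, limits the precision, as does the noise of weak signals. A gene with several probe sets was summarised by its brightest one.

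Signals are given for the main chaperones and regulators, the highest and lowest mean ratio of each role and the 3 smallest p of each fit. *Pdia5*, *Sec61a1* and *Tmed7* were named by size, and the signals of 2 further pathway genes were printed, after their values were seen. The members, gene lists and tests were chosen with earlier results of these data known. Symbols came from the array annotation, and 0 of the 56 differed from the current RefSeq table. The settings varied were the normalization (quantile, or centring on the median), a constant of 13 added before log2, the filter (none, or quantile 0.75), the size counted (1 or 0.3), ranked levels for the slope, the intensity trend, 1 probe set per gene, and the pools, each left out in turn.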

Additional observations from a re-analysis of the deposited data

How the results depend on the processing

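In limma 0 members passed under each alternative run, with each pool left out included. Over all probe sets the comparison with the control gave 0 to 3 calls when 1 pool was left out, the 3 without the 30% CR pool, and none of them was a member. No paired analysis was possible because every diet group has a single array of its own rats. The counts at a size of 0.5 are small and moved with the settings. Without the filter (56 probe sets), 4 members were higher and 2 lower at 5% CR, 1 and 3 at 10%, 1 and 2 at 20%, 4 were lower at 30%, and 1, *Pdia2*, was lower at all 4 levels. Those lower were 0 at 5 and 10% CR with the stricter filter, 0 at 5% with the added constant, 0 at 30% with the added constant and with quantile normalization, and 2 at 10% with median centring. At a size of 1 the counts were 0 at each level, both higher and lower. The median of the members at 20% CR was 0.039 with median centring (−0.012 as deposited). With 1 CR pool left out, the mean ratio of *Calr* ran between −0.043 and 0.00032 and that of *Pdia4* between −0.12 and 0.043, both positive only without the 30% CR pool. In all, 7 of the 16 named genes changed sign or moved over 1.5 times. The other 5 were *Dnajb9* (0.066 when the 30% pool was dropped, 0.084 when the 5% pool was and 0.25 when the 20% pool was), *Sec61g* (0.034 without the 30% pool), *Herpud1* (0.12 without the 20%, 0.13 without the 10% and 0.32 without the 30% pool), *Hsp90b1* (−0.048 without the 30% pool) and *Atf4* (0.028 without the 10% pool). Pair counts were varied only for 5 and 30% CR (highest and lowest), control and 20% CR (highest) and control and 10% CR (lowest). The last of these was 6 of 50 with quantile normalization, no more than the share over all kept probe sets (12.2%). As deposited it was 10 of 50, against 10.8%. The other varied counts stayed within 1.5 times. These pair counts were added after seeing the data. The cause of these shifts was not tested. With 1 array a level, mean differences smaller than the intervals were not detectable.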
